A study of Mus musculus with 24 samples.

Results

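The genes described here belong to the antioxidant program of the transcription factor NRF2 and to the glutathione and thioredoxin systems of mouse naive embryonic stem cells (ESCs). They are 10 of the 55385 Ensembl genes in each expression table, chosen by name and matched by Ensembl ID, and all 10 were found: Nfe2l2, Keap1, Nqo1, Hmox1, Gclc, Gclm, Txnrd1, Srxn1, Gsr and Osgin1. Total RNA was sequenced from 24 libraries in 12 groups of 2, deposited as 6 tables of 4 libraries. Values are FPKM, fragments per kilobase of gene scaled to the fragments of the library, so that genes can be compared per length within a library.

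Outside the Eed table, naive ESCs were kept in N2B27 medium with 2i and LIF, which also held the reducing agent 2-mercaptoethanol. In the first table they were sorted by TMRM, a dye that enters mitochondria with the membrane potential (ΔΨm), into cells with the highest (High) and the lowest signal (Low, the spontaneous quiescent ESCs or qESCs). In the second, cells received an siRNA pool against Mat2a, which makes S-adenosylmethionine (SAM) from methionine (siMat2a), or a non-targeting pool (siCtr). In the third, cells grew in etomoxir, an inhibitor of fatty acid oxidation used to induce quiescence (ETO), or with water (H2O). In the fourth, they grew in a MYC inhibitor, also used to induce quiescence (MYCi), or in DMSO. In the fifth, ESCs null for Eed, a subunit of Polycomb repressive complex 2 (EedKO), were set against heterozygous ESCs (Het). Both were derived from blastocysts and expanded on feeder fibroblasts in another 2i and LIF medium, with serum, serum replacement and 2-mercaptoethanol, unlike the cells of the other tables, and how many lines or clones they represent was not given. The last table holds sorted Low cells given SAM at 25 µM (LowSAM25uM) or 50 µM (LowSAM50uM), with no group without SAM. Each dataset is described as 2 independent biological replicates, without the cultures behind them. A p-value here covers only the spread between such libraries, which limma moderates over all genes of a table.

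KEAP1 holds NRF2, the product of Nfe2l2, in the cytoplasm and passes it to the proteasome through a CUL3 ubiquitin ligase. Oxidants and electrophiles modify cysteines of KEAP1, upon which NRF2 accumulates, pairs with a small MAF protein and binds antioxidant response elements near its target genes. The other 8 genes are known targets, and because NRF2 is controlled mainly at the protein level, RNA levels of Nfe2l2 and Keap1 do not measure its activity.

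Some features of the libraries bear on these genes. Depth, estimated from the value of 1 fragment, was 27320649 to 64544528 fragments over Ensembl genes. Each gene but Osgin1 rested on at least 742 fragments in every library, while Osgin1 rested on 2.01 to 293. Genes as a whole lay lower in FPKM in siMat2a, ETO and MYCi cells than in their controls, and single libraries of the H2O, siMat2a and SAM groups lay apart. Each log2 change is therefore given on the deposited scale and after division of each library by the median ratio of its tested genes (scaled to the median gene). This moved the median log2 change of all genes by 0.66 in the Mat2a table, 0.70 in the etomoxir, 0.68 in the MYC inhibitor and 0.40 in the SAM table, and by -0.044 and -0.10 in the sorted cells and the Eed table. Of all calls, the share that was higher in the treated cells went from 26.2% to 53.8% in the Mat2a table, from 21.3% to 49.7% in the etomoxir, from 12.02% to 47.2% in the MYC inhibitor, from 68.4% to 53.3% in the sorted cells and from 66.7% to 52.9% in the Eed table. Below, a gene rose or fell only where limma gave an adjusted p under 0.05 in the same direction on both scales, and a call on 1 scale is named as such. Which scale is nearer to the amount of RNA per cell was not tested.

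The targeted genes went with the labels. Mat2a stood at 48.5 and 45.1 FPKM in siCtr and 13.5 and 9.44 in siMat2a libraries, and Eed at 11.4 and 11.6 FPKM in Het and 2.72 and 2.78 in EedKO libraries. Neither fall was particular to its label. Mat2a also fell in ETO (-1.23 as deposited and -0.43 scaled), MYCi (-1.29 and -0.52) and EedKO cells (-0.76 and -0.87). Eed also fell in siMat2a (-1.07 and -0.32), ETO (-1.23 and -0.44) and MYCi cells (-0.95 and -0.19). All 8 pluripotency markers were tested in every table, and 1 rose and 1 fell in Low cells (13.0% and 5.65% of all genes). In siMat2a 0 and 4 did (12.3% and 19.7%), in ETO 0 and 7 (13.0% and 31.2%) and in MYCi 1 (Dppa3) and 6 (7.75% and 28.4%). In EedKO cells 3 rose and 3 fell (23.2% and 12.1%). Markers of other cells also moved, beside the same shares of all genes. The summed level of 7 trophoblast markers was 44.9 to 50.9 FPKM in Het and 165 to 236 in EedKO libraries (7 rose), and 8.5 to 10.1 in H2O and 24.9 to 26.4 in ETO libraries (4 rose and 1, Cdx2, fell). In MYCi cells Krt8 and Krt18 of this list rose and Cdx2 fell, in siMat2a cells Gata3 rose and Cdx2 fell, and in Low cells 1 rose and 1 fell. The sum over 8 primitive endoderm markers was 71 to 77.2 in Het and 98.4 to 106 in EedKO libraries (7 rose) and, in the Mat2a table, 64.9 to 68.2 in siCtr and 33 to 50.8 in siMat2a libraries (Gata6, Pdgfra and Dab2 rose and Lama1 fell). In ETO cells 4 of them rose and Lama1 fell, in MYCi cells 1 rose and in Low cells 2 rose. Of 10 fibroblast markers, 4 rose and 2 fell in EedKO cells. Col1a1, which fell, stood at 5.69 and 6.8 FPKM in Het and 0.65 and 0.681 in EedKO libraries. Of those that rose, Pdgfrb stood at 0.68 and 0.594 FPKM in Het and 3.89 and 4.36 in EedKO libraries. Fbn1 stood at 1.0 and 1.14 FPKM in Het and 1.57 and 1.86 in EedKO libraries. Dcn and Lum were under 0.04 FPKM in all 4. The summed level of the 10 fibroblast markers was 1.22 to 1.28 FPKM in siCtr and 1.45 to 2.29 in siMat2a libraries. There Col1a1, Col1a2, Fbn1 and Thy1 rose and Pdgfrb fell. In ETO cells 0 rose and 2 fell, in MYCi 0 and 1 and in Low cells 1 and 2. The summed level of 4 Y-linked genes was 5.22 to 5.63 FPKM in High and 15.4 to 17.5 in Low libraries (3 of 3 tested rose). Of these genes, Ddx3y and Eif2s3y fell in ETO and in MYCi cells, and Ddx3y, Kdm5d and Uty fell in EedKO cells. The part of these markers in the results was not tested, and in bulk RNA fewer cells of a type and less RNA per cell cannot be told apart.

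The core of the antioxidant response element is often written TGACNNNGC, and TGACTCA is a related element known from AP-1 factors. Both were searched on either strand in the RefSeq promoter windows of GRCm38.p6, 250 bases before to 50 after each start, after the expression values had been seen. Of the 10 genes, 7 have such a window. TGACNNNGC was present for 4 of them, Nfe2l2, Gclm, Txnrd1 and Srxn1, in at least 1 window of the gene, and likewise for 14.0% of all 27025 genes with a window (12.4% of 32851 windows). TGACTCA was present for 2, Srxn1 and Osgin1, and for 5.95% of genes (5.2% of windows). The windows of both genes are shown because they hold TGACTCA. Capitals mark TGACTCA or its reverse complement, and each run covers bases 130 to 31 before the start on the plus strand, chr2:152105394-152105493 for Srxn1, outside annotated genes, and chr8:119437017-119437116 for Osgin1, inside the gene but in no annotated exon.
Srxn1: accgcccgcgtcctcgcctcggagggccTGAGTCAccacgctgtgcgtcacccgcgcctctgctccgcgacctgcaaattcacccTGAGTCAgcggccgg
Osgin1: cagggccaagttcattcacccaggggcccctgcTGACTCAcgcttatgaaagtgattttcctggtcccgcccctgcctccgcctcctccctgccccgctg
The Srxn1 run holds these letters at 102 and at 45 bases before the start, and the Osgin1 run at 97. For comparison, the matches to TGACNNNGC before the starts of Gclm (chr3:122245413-122245441, plus strand), Txnrd1 (chr10:82859104-82859132, plus strand, inside the gene but in no annotated exon) and Nfe2l2 (chr2:75704885-75704913, minus strand, in an exon of the opposite gene E030042O20Rik) are shown with their neighbouring bases, and capitals mark the match.
Gclm: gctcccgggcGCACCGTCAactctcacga
Txnrd1: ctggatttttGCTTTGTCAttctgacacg
Nfe2l2: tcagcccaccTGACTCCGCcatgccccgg
A match is a description of letters and not a binding site, and it does not tell whether NRF2 or an AP-1 factor reads it. Other forms of these elements were not searched, and absence of a match from a window says nothing about the factor.

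Most of the genes were well expressed in naive ESCs. In High cells the mean of 2 libraries was 50.2 ± 5.04 FPKM (SD) for Gsr and 35.9 ± 3.03 for Txnrd1, followed by Nqo1 at 22.9 ± 2.22 and Nfe2l2 at 21.8 ± 1.87, which did not differ beyond their spread. Hmox1 stood at 14.5 ± 1.37, Gclc at 12.5 ± 0.979, Gclm at 10.6 ± 1.01, Keap1 at 8.23 ± 0.707 and Srxn1 at 5.39 ± 0.583 FPKM. Osgin1 was the lowest, at 0.323 ± 0.0477 FPKM. The order differed between tables, which were normalized separately. Hmox1 was the highest of the 10 in Het cells, at 196 ± 11 FPKM, and also in EedKO and ETO cells. In H2O cells it had the highest mean, at 84.8 ± 19.9, but Nfe2l2, at 56.1 and 80.8, overlapped with it. Its mean was also the highest in DMSO, MYCi and siMat2a cells, again with overlap with other genes.

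**Figure D1:**
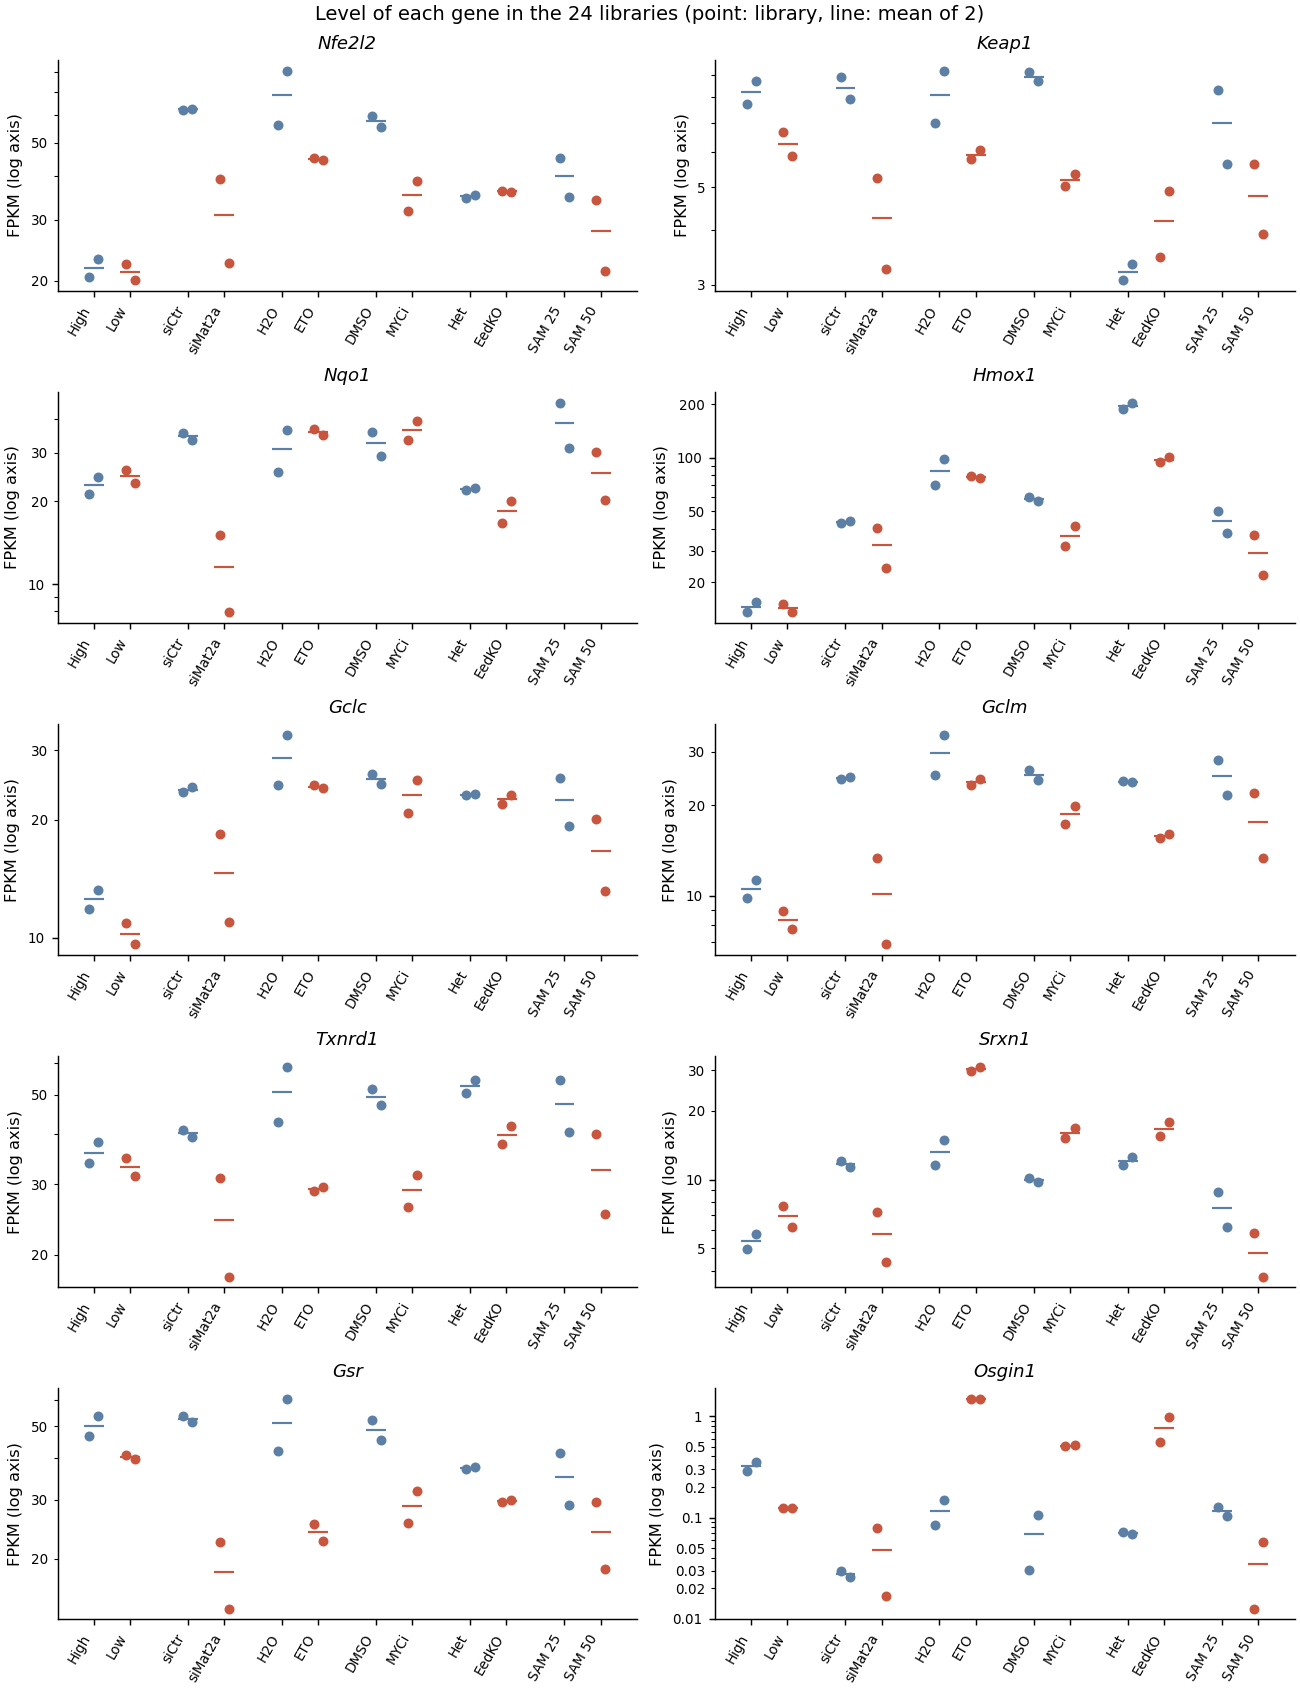
FPKM on a log axis of each of the 10 genes in all 24 libraries, in 6 pairs of groups (control blue, treated or altered red), with a point for each library and a line at the mean of 2. Srxn1 is at 29.8 and 31.2 and Osgin1 at 1.49 and 1.47 in the ETO libraries, above every other library of each gene, and the Hmox1 points of Het cells lie above those of all other groups. The tables were normalized separately, so that levels are comparable only within a pair of groups.

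The number of genes that changed on both scales ran from 0 of 10 in the SAM table and 1 in Low cells to 6 in EedKO cells. In Low cells 0 of 10 rose and 1 fell, beside 13.0% and 5.65% of all 21086 genes tested. After Mat2a knockdown 0 of 9 tested rose and 3 fell, beside 12.3% and 19.7% of 24938 genes. In etomoxir 2 of 10 rose and 1 fell, beside 13.0% and 31.2% of 25421 genes. In the MYC inhibitor 2 of 10 rose and 0 fell, beside 7.75% and 28.4% of 24335 genes. In EedKO cells 2 of 10 rose and 4 fell, beside 23.2% and 12.1% of 27015 genes. In ETO, MYCi and EedKO cells the 2 that rose were Srxn1 and Osgin1. There Osgin1 passed the filter of at least 0.1 FPKM in 2 libraries only through the treated group, so that its entry into these counts is no support for them, and without it 1 of 9 rose in each table. Single libraries moved these counts. The number that fell in Low cells was 0 without High replicate 2 or either Low library, and after Mat2a knockdown it was 0 without either siCtr library and 6 without siMat2a replicate 1. In etomoxir fewer rose without either ETO library and more without an H2O library. The fall there was lost without either ETO library or H2O replicate 2. For MYCi cells 1 rose without either DMSO library. In EedKO cells 0 rose without EedKO replicate 2 and 1 without either Het library, and 2 fell without EedKO replicate 1 and 1 without either Het library.

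More genes were called on a single scale. On the deposited scale the numbers higher and lower were 0 and 1 in Low cells (14.0% and 6.45% of all genes), 0 and 6 in siMat2a (13.1% and 36.8%), 2 and 2 in ETO (13.9% and 51.3%), 2 and 6 in MYCi (7.89% and 57.8%) and 2 and 4 in EedKO cells (24.2% and 12.1%). After scaling they were 1 and 6 in Low cells (19.4% and 17.0%), 0 and 3 in siMat2a (23.0% and 19.8%), 7 and 1 in ETO (30.9% and 31.2%), 5 and 0 in MYCi (25.4% and 28.4%) and 2 and 5 in EedKO cells (25.3% and 22.5%). The median scaled log2 change of the 10 genes was -0.25 in Low, -0.30 in siMat2a, 0.53 in ETO, 0.20 in MYCi and -0.27 in EedKO cells, where that of all genes lay between -0.0071 and 0.048. The deposited medians were -0.20, -1.04, -0.26, -0.56 and -0.16, beside 0.037, -0.63, -0.66, -0.65 and 0.11 for all genes.

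**Figure D2:**
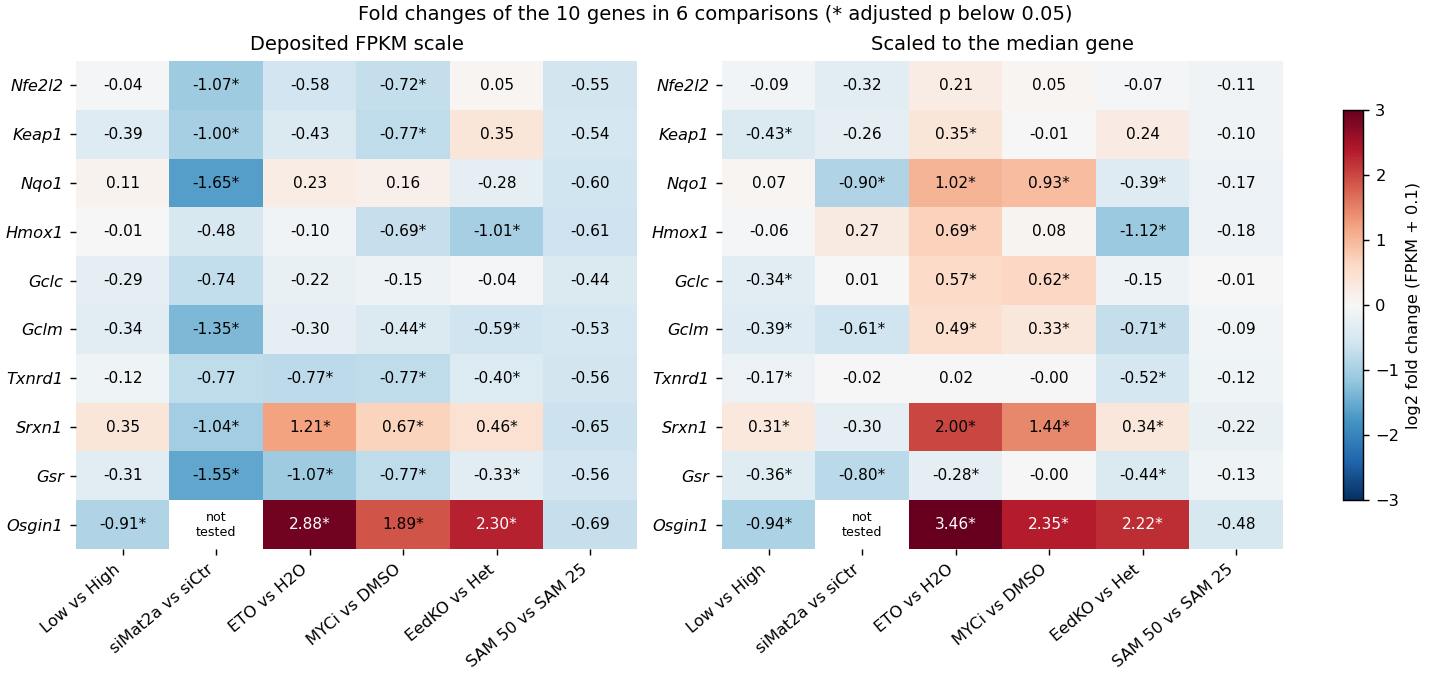
Log2 change of FPKM + 0.1 for the 10 genes (rows) in 6 comparisons (columns), on the deposited scale (left) and scaled to the median gene (right), with an asterisk at an adjusted p below 0.05. Osgin1 has the highest values, 2.88 and 3.46 in etomoxir, and in that column Nqo1, Hmox1, Gclc and Gclm go from 0.23, -0.10, -0.22 and -0.30 on the left to 1.02, 0.69, 0.57 and 0.49 on the right.

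With all libraries of each table, neither NRF2 nor its inhibitor changed on both scales in any of them. Nfe2l2 (ENSMUSG00000015839, GRCm38 chromosome 2, 75675513 to 75704641, minus strand) stood at 20.4 and 23.1 FPKM in High and 22.3 and 20.04 in Low libraries, and the groups overlapped (-0.039, SE 0.15, adjusted p = 0.896). It stood at 62.3 and 62.6 FPKM in siCtr and 39.2 and 22.4 in siMat2a libraries. In the inhibitor tables it stood at 56.1 and 80.8 FPKM in H2O and 45.3 and 44.7 in ETO libraries, and at 59.8 and 55.6 FPKM in DMSO and 31.8 and 38.7 in MYCi libraries. In these 3 tables each treated library lay below both controls, but after scaling the log2 changes were -0.32 (SE 0.11), 0.21 (SE 0.074) and 0.052 (SE 0.048), and none passed. On the deposited scale Nfe2l2 was called lower in siMat2a (-1.07, SE 0.45, adjusted p = 0.0396) and in MYCi cells (-0.72, SE 0.18, adjusted p = 0.00457), calls lost without siCtr replicate 1 (-1.07) or 2 (-1.07) and without DMSO replicate 1 (-0.66) or 2 (-0.77). In the Eed table it stood at 34.7 and 35.3 FPKM in Het and 36.4 and 36 in EedKO libraries.

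Keap1 (ENSMUSG00000003308, chromosome 9, 21229730 to 21239361, minus strand) shares part of its exons with Gm16754 on the opposite strand, where the counting, which took no account of strand, cannot tell the genes apart. It stood at 7.74 and 8.73 FPKM in High and 6.67 and 5.88 in Low libraries, each Low library below both High libraries. It was called lower in Low cells after scaling (-0.43, SE 0.037, adjusted p = 0.00408) but not on the deposited scale (-0.39, SE 0.15, adjusted p = 0.0867), and the scaled call was kept whichever library was left out. In ETO cells the scales gave opposite signs, -0.43 (SE 0.29) as deposited and a call at 0.35 (SE 0.059, adjusted p = 0.00707) after scaling. On the deposited scale Keap1 was called lower in siMat2a (-1.0, SE 0.39, adjusted p = 0.0273, lost without siCtr replicate 1, at -0.92, or 2, at -1.08) and in MYCi cells (-0.77, SE 0.15, adjusted p = 9.58e-04), with scaled values of -0.26 and -0.011 and no call. In the Eed table it stood at 3.07 and 3.35 FPKM in Het and 3.47 and 4.91 in EedKO libraries (0.35, SE 0.19, adjusted p = 0.214). The result there hung on single libraries, with log2 changes of 0.11 to 0.60 as deposited and 0.16 to 0.42 scaled when 1 was left out.

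Of 9 other regulators of NRF2, all tested in every table, 0 rose and 0 fell in Low cells (13.0% and 5.65% of all genes). In siMat2a 0 and 3 did (12.3% and 19.7%), in ETO 1 and 2 (13.0% and 31.2%) and in MYCi 0 and 1 (7.75% and 28.4%). In EedKO cells 4 rose and 0 fell (23.2% and 12.1%). The scaled medians of these regulators were -0.086, -0.21, 0.48, 0.011 and 0.29 in that order. Log2 changes of listed genes are given as deposited and then scaled. Cul3, the scaffold of the ligase that works with KEAP1, fell from 45.5 and 63.5 to 25.6 and 24.9 FPKM in etomoxir (-1.09 and -0.30) and from 50.1 and 46.2 to 22.8 and 27.9 FPKM in the MYC inhibitor (-0.93 and -0.16). Mafk, a small MAF partner, rose from 0.909 and 1.29 to 2.32 and 2.27 FPKM in etomoxir (1.02 and 1.76) and from 1.61 and 1.68 to 2.58 and 3.33 FPKM in EedKO cells (0.80 and 0.68). Bach1, a repressor that competes with NRF2 at Hmox1 and other targets, rose in EedKO cells from 7.32 and 7.75 to 15.1 and 17 FPKM (1.08 and 0.96), as did Maff from 0.804 and 0.862 to 1.85 and 2.38 FPKM (1.24 and 1.13). In siMat2a cells Mafg (-1.09 and -0.34), Sqstm1, whose product p62 binds KEAP1 (-1.12 and -0.37), and Btrc, a substrate receptor for NRF2 (-1.30 and -0.60), fell.

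Of the detoxifying targets, the quinone reductase gene Nqo1 fell after Mat2a knockdown. Nqo1 (ENSMUSG00000003849, chromosome 8, 107388225 to 107403206, minus strand) stood at 35.5 and 33.6 FPKM in siCtr and 15.2 and 7.9 in siMat2a libraries, both siMat2a libraries below both controls (-1.65, SE 0.43, adjusted p = 8.92e-04). Scaled, the siCtr libraries stood at 26.8 and 26.2 and the siMat2a libraries at 16.3 and 12.3 (-0.90, SE 0.15, adjusted p = 0.00987). The deposited call was lost without siCtr replicate 1 (-1.61, adjusted p = 0.429) or 2 (-1.69, adjusted p = 0.389), and the scaled call was kept whichever library was left out.

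With all libraries of the inhibitor tables, Nqo1 was called on the scaled values alone. It stood at 25.5 and 36.5 FPKM in H2O and 36.6 and 34.7 in ETO libraries, where the groups overlapped (0.23, SE 0.31, adjusted p = 0.539). This deposited change hung on single libraries, at -0.032 to 0.48 when 1 was left out. Scaled, the H2O libraries stood at 21.8 and 24.2 and the ETO libraries at 47.5 and 45.9, apart from each other (1.02, SE 0.071, adjusted p = 7.02e-04). In the MYC inhibitor the log2 change was 0.16 (SE 0.18) as deposited and 0.93 (SE 0.078, adjusted p = 0.00174) after scaling. These scaled calls were kept whichever library was left out. In the sorted cells Nqo1 stood at 21.3 and 24.5 FPKM in High and 26.1 and 23.4 in Low libraries, with overlap and no call (0.11 and 0.066 as deposited and scaled). In EedKO cells it was called lower after scaling (-0.39, SE 0.060, adjusted p = 0.00718), a call lost without Het replicate 1 (-0.38) or 2 (-0.45), and not as deposited (-0.28, SE 0.12, adjusted p = 0.136).

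Hmox1, which encodes the heme oxygenase that NRF2 induces, fell in EedKO cells. Hmox1 (ENSMUSG00000005413, chromosome 8, 75093621 to 75100589, plus strand) stood at 188 and 204 FPKM in Het and 94.5 and 101 in EedKO libraries, with no overlap. The log2 change was -1.01 (SE 0.11, adjusted p = 0.0043) as deposited and -1.12 (SE 0.082, adjusted p = 0.00119) after scaling, and both calls were kept whichever library was left out. In the sorted cells Hmox1 stood at 13.6 and 15.5 FPKM in High and 15.1 and 13.6 in Low libraries (-0.015, SE 0.15, adjusted p = 0.961). In the etomoxir table it stood at 70.7 and 98.9 FPKM in H2O and 78.8 and 77.2 in ETO libraries, with overlap, and was called higher after scaling only, from 60.5 and 65.7 to 102 and 102 (0.69, SE 0.071, adjusted p = 0.00173). In the MYC inhibitor table it stood at 60.1 and 57.3 FPKM in DMSO and 31.9 and 41.3 in MYCi libraries and was called lower as deposited only (-0.69, SE 0.18, adjusted p = 0.0070), a call lost without DMSO replicate 1 (-0.66) or 2 (-0.73). In the Mat2a table it stood at 43.3 and 44.2 FPKM in siCtr and 40.6 and 24.2 in siMat2a libraries, and the scales gave opposite signs with no call (-0.48 and 0.27).

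In the wider list of 29 other NRF2 targets, 28 were found and 25 to 28 tested. Of these, 3 rose and 6 fell in Low cells (13.0% and 5.65% of all genes). In siMat2a 0 and 18 did (12.3% and 19.7%), in ETO 2 and 8 (13.0% and 31.2%) and in MYCi 3 and 10 (7.75% and 28.4%). In EedKO cells 12 rose and 4 fell (23.2% and 12.1%). The scaled medians were -0.27, -0.55, 0.026, -0.11 and 0.19. In Low cells Ephx1, microsomal epoxide hydrolase, rose from 1.15 and 0.944 to 15 and 14.4 FPKM (3.69 and 3.64), and Cbr3, a carbonyl reductase, fell from 39.8 and 47.2 to 21.9 and 19.2 FPKM (-1.07 and -1.12). Ephx1 also rose in ETO (0.70 and 1.49) and MYCi cells (0.68 and 1.44). The glutathione transferase Gstm1 fell after Mat2a knockdown from 73.2 and 70.2 to 19.5 and 13.2 FPKM (-2.15 and -1.40), as did its close relative Gstm2 (-2.07 and -1.33), with which it may share divided fragments. Tkt, transketolase of the pentose phosphate path, fell in siMat2a (-1.72 and -0.97), ETO (-1.80 and -1.0) and MYCi cells (-1.52 and -0.75).

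In EedKO cells the listed targets that rose included Me1, the cytosolic malic enzyme that makes NADPH, from 3.11 and 3.12 to 9.03 and 9.45 FPKM (1.54 and 1.42), Cbr3 from 1.5 and 1.79 to 4.62 and 7.3 FPKM (1.76 and 1.65) and Lrp8 (1.52 and 1.41). Gsta4, a transferase for lipid aldehydes, fell there from 125 and 133 to 69.9 and 79.99 FPKM (-0.79 and -0.91), and Prdx1 (-0.47 and -0.58) and Epha2 (-0.90 and -1.02) fell too. Gsta4 also fell in etomoxir, from 144 and 206 to 45.1 and 41 FPKM (-2.0 and -1.21).

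Glutamate-cysteine ligase, the limiting step of glutathione synthesis, has a catalytic subunit (Gclc) and a modifier subunit (Gclm). Gclc (ENSMUSG00000032350, chromosome 9, 77754535 to 77794485, plus strand) changed in no table on both scales. It stood at 11.9 and 13.2 FPKM in High and 10.9 and 9.61 in Low libraries, each Low library below both High ones, and was called lower after scaling only (-0.34, SE 0.034, adjusted p = 0.00563), a call lost without Low replicate 2 (-0.30). After scaling it was called higher in etomoxir (0.57, SE 0.050, adjusted p = 0.00118) and in the MYC inhibitor (0.62, SE 0.044, adjusted p = 0.00137), where the deposited changes were -0.22 and -0.15 with no call. In the Eed table it stood at 23.1 and 23.2 FPKM in Het and 21.9 and 23.1 in EedKO libraries (-0.038, SE 0.087, adjusted p = 0.766), and in siMat2a cells the log2 change was -0.74 as deposited and 0.0059 after scaling, with no call.

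Gclm fell after Mat2a knockdown and in EedKO cells. Gclm (ENSMUSG00000028124, chromosome 3, 122245557 to 122270732, plus strand) shares exon bases with Gm17494 on the opposite strand and with Gm6061 on its own, so that its counts are uncertain there. It stood at 24.5 and 24.8 FPKM in siCtr and 13.3 and 6.89 in siMat2a libraries (-1.35, SE 0.42, adjusted p = 0.0059), and the scaled change was smaller (-0.61, SE 0.15, adjusted p = 0.0299). Both calls were lost without siCtr replicate 1 (-1.36 as deposited and -0.66 scaled) or 2 (-1.34 and -0.59). In the Eed lines it stood at 24 and 23.8 FPKM in Het and 15.6 and 16 in EedKO libraries, with no overlap (-0.59, SE 0.085, adjusted p = 0.00785), and the scaled call (-0.71, SE 0.091, adjusted p = 0.00451) was kept whichever library was left out. The deposited one was lost without Het replicate 1 (-0.59) or 2 (-0.60).

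In the MYC inhibitor Gclm was called in opposite directions, -0.44 (adjusted p = 0.0316) as deposited and 0.33 (adjusted p = 0.00313) after scaling. In that table it stood at 26 and 24.3 FPKM in DMSO and 17.4 and 19.9 in MYCi libraries and, scaled, at 19.3 and 19 and at 24.2 and 24. The deposited call was lost without DMSO replicate 1 (-0.39) or 2 (-0.49) and the scaled one was kept in each case. In etomoxir it was called higher after scaling (0.49, adjusted p = 0.00296) and in Low cells lower after scaling (-0.39, adjusted p = 0.00586, lost without Low replicate 2, at -0.34).

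Of 26 other genes of glutathione synthesis, use and turnover, all tested, 6 rose and 3 fell in Low cells (13.0% and 5.65% of all genes). In siMat2a 3 and 7 did (12.3% and 19.7%), in ETO 4 and 9 (13.0% and 31.2%) and in MYCi 1 and 13 (7.75% and 28.4%). In EedKO cells 12 rose and 1 fell (23.2% and 12.1%). The scaled medians were 0.069, -0.14, -0.27, -0.25 and 0.39. Ggt1, which cleaves extracellular glutathione, fell in Low (-1.01 and -1.06), siMat2a (-1.49 and -0.81), ETO (-2.39 and -1.64) and MYCi cells (-2.06 and -1.38) and rose in EedKO cells from 0.406 and 0.298 to 2.52 and 3.45 FPKM (2.77 and 2.66). Chac1, which degrades glutathione in the cytosol, fell in Low (-1.25 and -1.30) and siMat2a cells (-1.91 and -1.22). Gsto1, an omega-class transferase, rose in Low cells from 6.15 and 7.1 to 12.5 and 11 FPKM (0.82 and 0.77), in siMat2a cells from 3.62 and 3.77 to 27.1 and 16.7 FPKM (2.49 and 3.23) and in ETO cells from 2.85 and 4.09 to 19.4 and 19.1 FPKM (2.46 and 3.24), and in MYCi cells (0.48 and 1.23).

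Gpx3, a secreted glutathione peroxidase, rose in Low cells from 0.913 and 1.3 to 8.69 and 8.09 FPKM (2.83 and 2.79), in siMat2a cells from 7.49 and 9.52 to 29.5 and 18.9 FPKM (1.47 and 2.22) and in ETO cells from 3.39 and 4.77 to 10.1 and 8.85 FPKM (1.21 and 1.99). Gpx4, which reduces lipid peroxides, fell in siMat2a cells from 13.2 and 13.6 to 5.23 and 3.9 FPKM (-1.55 and -0.81), and Gpx1 fell in ETO cells from 170 and 238 to 72.6 and 68.7 FPKM (-1.51 and -0.71).

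In the list of 10 genes for cystine uptake and transsulfuration, 8 or 9 were tested. In Low cells 1 rose and 2 fell (13.0% and 5.65% of all genes) and in siMat2a 0 and 0 (12.3% and 19.7%, with 6 lower as deposited only). In ETO 1 and 5 did (13.0% and 31.2%), in MYCi 1 and 3 (7.75% and 28.4%) and in EedKO cells 2 and 0 (23.2% and 12.1%). Slc7a11, the cystine carrier of system xc- and itself an NRF2 target, rose in etomoxir from 0.489 and 0.939 to 4.65 and 4.74 FPKM (2.62 and 3.35) and in the MYC inhibitor from 0.776 and 0.77 to 1.2 and 1.52 FPKM (0.73 and 1.43). Its partner Slc3a2 fell in the MYC inhibitor from 61.7 and 59.1 to 29.1 and 34.6 FPKM (-0.93 and -0.16) and in Low cells from 37.3 and 41.6 to 28.6 and 27 FPKM (-0.50 and -0.55). Cbs, the first enzyme of transsulfuration, rose in Low cells from 3.55 and 3.96 to 6.83 and 6.18 FPKM (0.78 and 0.73) and fell in ETO cells from 6.74 and 8.71 to 2.99 and 3.09 FPKM (-1.30 and -0.53). Cth, the enzyme after it, fell in MYCi cells from 42.2 and 38.5 to 13 and 14.5 FPKM (-1.55 and -0.78).

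**Figure D3:**
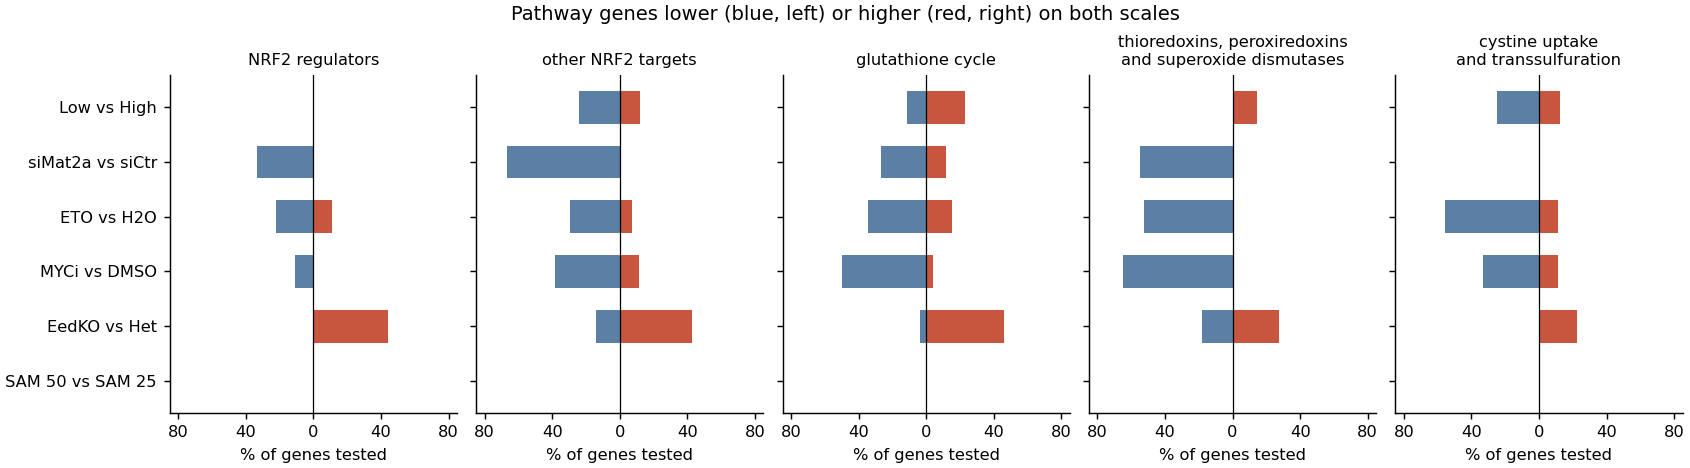
Percent of the tested genes of each of 5 lists that were higher (red, to the right) or lower (blue, to the left) on both scales, for the 6 comparisons. In the list of other NRF2 targets 18 of 27 fell in siMat2a cells, beside 19.7% of all genes. In EedKO cells 12 of 28 rose, beside 23.2%, and the SAM comparison has no bar.

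Gsr (ENSMUSG00000031584, chromosome 8, 33652523 to 33698163, plus strand), which returns oxidized glutathione to its reduced form, fell in 3 tables. It stood at 53.6 and 51.3 FPKM in siCtr and 22.4 and 14.2 in siMat2a libraries (-1.55, SE 0.44, adjusted p = 0.00248) with a scaled change of -0.80 (SE 0.080, adjusted p = 0.00322). The scaled call was kept whichever library was left out, and the deposited one was lost without siCtr replicate 1 (-1.52) or 2 (-1.59). In the etomoxir table it stood at 42 and 60.5 FPKM in H2O and 25.4 and 22.6 in ETO libraries (-1.07, SE 0.32, adjusted p = 0.00161), and the scaled change was small (-0.28, SE 0.085, adjusted p = 0.0426). This call was lost on both scales without ETO replicate 1 (-1.15 and -0.30) or 2 (-0.99 and -0.16), and on the scaled values also without H2O replicate 2 (-0.24).

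Gsr in the Eed table stood at 37.1 and 37.8 FPKM in Het and 29.6 and 30.1 in EedKO libraries, with no overlap (-0.33, SE 0.086, adjusted p = 0.0398 as deposited and -0.44, SE 0.091, adjusted p = 0.0169 scaled). It was no longer called on either scale without Het replicate 1 (-0.34 and -0.43) or 2 (-0.31 and -0.49), and as deposited without EedKO replicate 1 (-0.32) or 2 (-0.34). In MYCi cells Gsr was called lower as deposited (-0.77, SE 0.18, adjusted p = 0.0034, lost without DMSO replicate 1, at -0.67, or 2, at -0.87) with a scaled change of -8.4e-04 (SE 0.067). In Low cells it was called lower after scaling only (-0.36, SE 0.046, adjusted p = 0.00917), and not without Low replicate 1 (-0.29).

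Txnrd1 (ENSMUSG00000020250, chromosome 10, 82833951 to 82897712, plus strand), the selenoprotein that reduces cytosolic thioredoxin, fell in EedKO cells. It stood at 50.6 and 54.5 FPKM in Het and 37.7 and 41.7 in EedKO libraries, with no overlap (-0.40, SE 0.10, adjusted p = 0.0388), and the scaled call (-0.52, SE 0.064, adjusted p = 0.0040) was kept whichever library was left out. The deposited call was lost without EedKO replicate 1 (-0.33), Het replicate 1 (-0.46) or Het replicate 2 (-0.35). In the etomoxir table it stood at 42.7 and 58.7 FPKM in H2O and 28.9 and 29.6 in ETO libraries and was called lower as deposited (-0.77, SE 0.32, adjusted p = 0.0248, lost without ETO replicate 1, at -0.76, or 2, at -0.79), with a scaled change of 0.019. The MYC inhibitor gave a deposited call (-0.77, SE 0.17, adjusted p = 0.00253, lost without DMSO replicate 1, at -0.71, or 2, at -0.84) and a scaled change of -0.0046. In Low cells it was called lower after scaling (-0.17, SE 0.030, adjusted p = 0.0203), which was lost without High replicate 2 (-0.16), Low replicate 1 (-0.15) or Low replicate 2 (-0.14).

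Srxn1 (ENSMUSG00000032802, chromosome 2, 152105516 to 152111376, plus strand), which repairs overoxidized peroxiredoxins, rose in etomoxir, in the MYC inhibitor and in EedKO cells. It stood at 11.5 and 14.9 FPKM in H2O and 29.8 and 31.2 in ETO libraries (1.21, SE 0.30, adjusted p = 1.95e-04). Scaled, the H2O libraries stood at 9.88 and 9.91 and the ETO libraries at 38.7 and 41.1 (2.0, SE 0.053, adjusted p = 2.85e-04). In the MYC inhibitor table it stood at 10.2 and 9.8 FPKM in DMSO and 15.2 and 16.8 in MYCi libraries (0.67, SE 0.15, adjusted p = 0.00252 as deposited and 1.44, SE 0.043, adjusted p = 0.00112 scaled). In both tables the treated libraries lay above both controls, and the scaled call was kept whichever library was left out. The deposited call was lost in etomoxir without ETO replicate 1 (1.24) or 2 (1.18), and in the MYC inhibitor without DMSO replicate 1 (0.70) or 2 (0.64).

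Srxn1 in the Eed table stood at 11.6 and 12.6 FPKM in Het and 15.5 and 17.8 in EedKO libraries, with no overlap (0.46, SE 0.11, adjusted p = 0.0328 as deposited and 0.34, SE 0.058, adjusted p = 0.00988 scaled). Without Het replicate 1 (0.40 and 0.31) or 2 (0.51 and 0.34) neither call was kept, and without EedKO replicate 2 the deposited one was lost (0.36). In the sorted cells it stood at 4.98 and 5.8 FPKM in High and 7.64 and 6.21 in Low libraries, both Low libraries above both High ones, and was called after scaling only (0.31, SE 0.069, adjusted p = 0.0338). That call was lost without High replicate 1 (0.27), High replicate 2 (0.33) or Low replicate 1 (0.24). In the Mat2a table it stood at 12 and 11.3 FPKM in siCtr and 7.18 and 4.37 in siMat2a libraries and was called lower as deposited only (-1.04, SE 0.40, adjusted p = 0.025, lost without siCtr replicate 1, at -1.0, or 2, at -1.09), with a scaled change of -0.30.

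Of 22 other genes of thioredoxins, peroxiredoxins and superoxide dismutases, 20 to 22 were tested. In Low cells 3 rose and 0 fell (13.0% and 5.65% of all genes) and in siMat2a 0 and 11 (12.3% and 19.7%). In ETO 0 and 11 did (13.0% and 31.2%), in MYCi 0 and 13 (7.75% and 28.4%) and in EedKO cells 6 and 4 (23.2% and 12.1%). The scaled medians were -0.039, -0.33, -0.32, -0.31 and -0.052. Prdx2, a cytosolic peroxiredoxin and a substrate of sulfiredoxin, fell in siMat2a cells from 55.8 and 53.1 to 20.4 and 13.3 FPKM (-1.72 and -0.97), in ETO cells from 35.6 and 50.3 to 12.7 and 11.2 FPKM (-1.82 and -1.02) and in MYCi cells from 47.6 and 43 to 14.6 and 17.7 FPKM (-1.48 and -0.72). Txnrd3, a thioredoxin and glutathione reductase, fell in siMat2a (-1.41 and -0.69), ETO (-1.76 and -0.99) and MYCi cells (-1.65 and -0.91) and rose in EedKO cells (0.79 and 0.67). In Low cells the 3 that rose were Txnip, an inhibitor of thioredoxin (0.53 and 0.49), and the sestrins Sesn2 (0.60 and 0.55) and Sesn3 (0.59 and 0.54).

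Osgin1 had the largest changes of the 10 genes, at the lowest level. Osgin1 (ENSMUSG00000074063, chromosome 8, 119434124 to 119446256, plus strand) encodes an oxidative stress induced growth inhibitor. It stood at 0.0838 and 0.149 FPKM in H2O and 1.49 and 1.47 in ETO libraries, from an estimated 10.8 and 14 to 264 and 293 fragments, a ratio of means of 12.7. The log2 change was 2.88 (SE 0.29, adjusted p = 4.01e-21) as deposited and 3.46 (SE 0.16, adjusted p = 4.01e-04) after scaling. Both p-values rest on a spread that limma moderated over all genes, and not on Osgin1 alone. In the MYC inhibitor table it stood at 0.0302 and 0.107 FPKM in DMSO and 0.504 and 0.518 in MYCi libraries, a ratio of 7.44 (1.89, SE 0.27, adjusted p = 1.89e-04 as deposited and 2.35, SE 0.26, adjusted p = 0.00297 scaled). The DMSO libraries rested on an estimated 2.98 and 13.2 fragments, and the ratio was 4.77 without DMSO replicate 1 and 16.9 without DMSO replicate 2. In the Eed table it stood at 0.0723 and 0.0692 FPKM in Het and 0.561 and 0.971 in EedKO libraries, a ratio of 10.8 (2.30, SE 0.28, adjusted p = 0.00533 as deposited and 2.22, SE 0.22, adjusted p = 0.00235 scaled). It was called higher in these 3 tables, where it had passed the filter on low values through the treated libraries. With no filter, limma also called it as deposited, at an adjusted p of 0.0143 in etomoxir, 0.0122 in the MYC inhibitor and 0.0216 in EedKO cells. The setting with no filter was not run on scaled values, so the rule of both scales was not applied to it. As control values lie near or under the pseudocount of 0.1 FPKM, the log2 changes understate the difference. The promoter window of Osgin1 is one of those with TGACTCA shown above.

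The etomoxir and MYC inhibitor calls of Osgin1 were kept on both scales whichever library was left out. In EedKO cells the calls were kept without either Het library, and without an EedKO library Osgin1 no longer passed the filter on low values and was not tested. In Low cells it fell. It stood at 0.289 and 0.357 FPKM in High and 0.124 and 0.124 in Low libraries, from an estimated 50.3 and 45.4 to 19.2 and 14.1 fragments (-0.91, SE 0.21, adjusted p = 0.0094 as deposited and -0.94, SE 0.14, adjusted p = 0.0121 scaled). The deposited call was lost without High replicate 2 (-0.80, adjusted p = 0.0566), and the scaled one without High replicate 2 (-0.89), Low replicate 1 (-0.89) or Low replicate 2 (-0.97). In the Mat2a table Osgin1 was under the filter, at 0.0295 and 0.026 FPKM in siCtr and 0.0792 and 0.017 in siMat2a libraries.

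**Figure D4:**
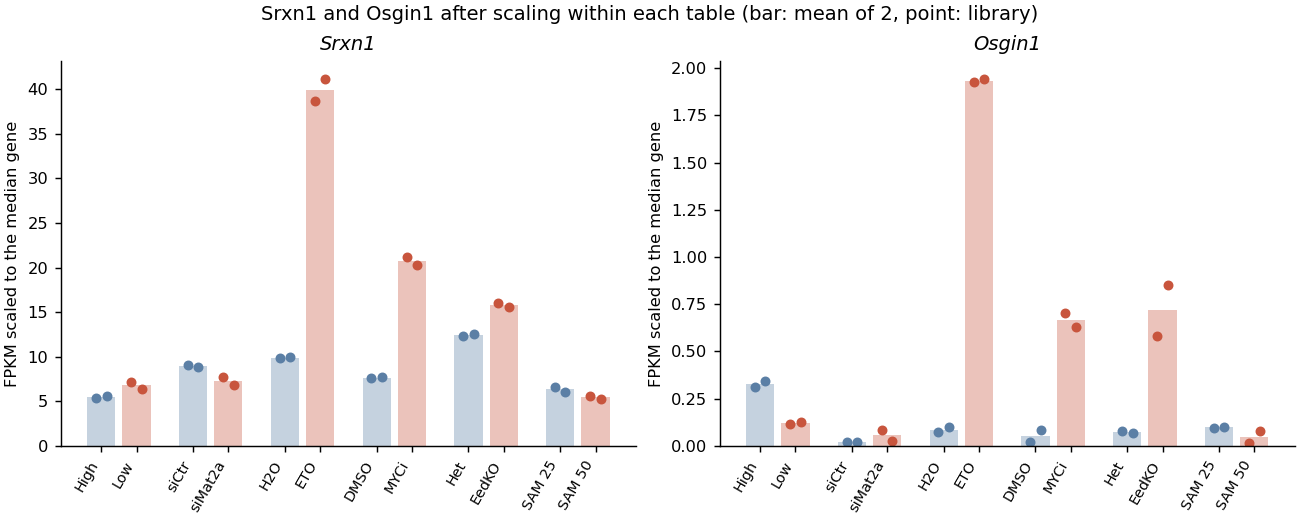
FPKM of Srxn1 (left) and Osgin1 (right) scaled to the median gene within each table, by group, with a bar from 0 to the mean of 2 libraries and a point for each library. In ETO cells Srxn1 is at 38.7 and 41.1 and Osgin1 at 1.93 and 1.94. Both genes lie above their controls in ETO, MYCi and EedKO cells, while Osgin1 is lower in Low than in High cells. Levels are comparable only within a table.

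The effects of etomoxir and of the MYC inhibitor were set against each other in one fit of both tables. As deposited, limma called 0 of 10 genes, beside 1.13% of 23717 genes higher and 0.519% lower. After scaling, 3 of 10 were higher in etomoxir relative to the MYC inhibitor, beside 8.46% of all genes, and 0 lower, beside 10.3%. They were Hmox1, by 0.62 (SE 0.097, adjusted p = 0.00897), Srxn1, by 0.56 (SE 0.063, adjusted p = 0.00332), and Keap1, by 0.37 (SE 0.080, adjusted p = 0.0245). On both scales 1.13% and 0.51% of all genes were called and none of the 10. The scaled difference in Osgin1 did not pass (1.11, SE 0.31, adjusted p = 0.0513). Those in Nqo1 (0.086, SE 0.11) and Gclc (-0.053, SE 0.060) were within their errors.

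The effects of both inhibitors were also set against that of low ΔΨm, a comparison added after the values had been seen. On both scales the effect of etomoxir was higher in 2 of 10 genes, beside 4.89% of 20406 genes, and lower in 0, beside 34.7%. They were Osgin1, by 3.80 (SE 0.33) as deposited and 4.40 after scaling, and Srxn1, by 0.86 (SE 0.28, adjusted p = 0.0155) and 1.69. As deposited 2 were higher, beside 5.06% of genes, and 1, Gsr, lower, beside 59.7%. After scaling 9 were higher, all but Gsr, beside 18.8%, and 0 lower, beside 34.7%. For the MYC inhibitor 1 of 10 was higher on both scales, beside 3.37% of 20259 genes, and 0 lower, beside 31.2%. This was Osgin1, by 2.81 (SE 0.34) and 3.29. As deposited it was the 1 higher, beside 3.38% of genes, and 3 were lower (Nfe2l2, Hmox1 and Txnrd1), beside 66.4%. After scaling 8 were higher, all but Nfe2l2 and Hmox1, beside 14.7%, and 0 lower, beside 31.2%, so that Txnrd1 was called in opposite directions. Both comparisons use the same sorted libraries. In both inhibitor tables Osgin1 passed the filter on low values only through the treated group, so that its entry into these counts is no support for them. Without Osgin1, Srxn1 alone was higher for etomoxir on both scales, and none of the other genes for the MYC inhibitor.

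For SAM at 50 µM against 25 µM in Low cells, limma called 0 of the 10 genes on either scale in a fit that did not pair the libraries, and 0 had an unadjusted p under 0.05. Of all 23911 genes, 0.389% were higher and 0.493% lower as deposited and 0.0% in either direction after scaling, with 1281 and 1449 genes at an unadjusted p under 0.05. All 10 had negative log2 changes as deposited, with a median of -0.56, beside -0.40 for all genes, and a scaled median of -0.12. Srxn1 stood at 8.84 and 6.18 FPKM in LowSAM25uM and 5.82 and 3.77 in LowSAM50uM libraries, and single libraries of a group lay as far apart as the groups did. With a block for the replicate number, limma called most of the 10 genes lower at 50 µM as deposited and none after scaling. No source says that these numbers mark shared cultures. Without untreated Low cells in the table, an effect of SAM itself was not measured.

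Across the 24 libraries, scaled and centred within each table, the patterns of Nfe2l2 and Nqo1 were compared with those of 11649 genes. The points share tables and groups, and the correlations only describe these libraries. Closest to Nfe2l2 were Tmem123 (r = 0.954), Hmgcs1, of the mevalonate pathway (0.909), Ube2j1, a ubiquitin-conjugating enzyme (0.904), Sc5d, of cholesterol synthesis (0.904), and Shoc2 (0.903). Closest to Nqo1 were Ccdc141 (0.927), Vps37c (0.927), Afap1 (0.925), Abcc4, an exporter (0.920), and Galm (0.915). None of the 10 genes was among these. Of the 10, Gclm was nearest to Nfe2l2 (r = 0.798, rank 37) and Srxn1 to Nqo1 (r = 0.816, rank 58). Osgin1 was too low in level to enter this ranking. Correlations between members took in all 10 genes. The highest was that of Srxn1 with Osgin1 (r = 0.859), and the lowest that of Gsr with Osgin1 (r = -0.360). Both rest on Osgin1, which stood near or under the pseudocount of 0.1 FPKM in most groups, on as few as 2.01 estimated fragments.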

How the data were processed

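RNA was depleted of ribosomal RNA and sequenced in 24 libraries. The paper's protocol names spike-in RNA, and only the table of the sorted cells holds spike-in rows. The authors trimmed reads with Trim Galore, aligned them with TopHat2 2.1.1 to mm10, removed duplicates with SAMtools 1.9, counted fragments with featureCounts without regard to strand, dividing multi-mapped fragments, and deposited FPKM values made with edgeR. Because counts are fractional, no count test was run. Each table was fitted alone with limma 3.58.1 (R 4.3.3, trend) on log2(FPKM + 0.1), over genes with at least 0.1 FPKM in at least 2 of 4 libraries, with Benjamini-Hochberg adjustment over all genes tested and a threshold of 0.05, as deposited and scaled to the median gene. The fit was tested on simulated data. Of 55385 Ensembl IDs, 55144 matched a symbol in the mm10 annotation. All 10 members were named, and from each list up to 3 genes per direction with the largest scaled change among those called on both scales with a mean of at least 1 FPKM; some were left out for length. Patterns were compared over genes with a mean of at least 1 FPKM in every table, and correlations between members over all 10 genes at any level. The members and lists were chosen with earlier results of these data known. Promoter sequences are from RefSeq (GRCm38.p6).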

Additional observations from a re-analysis of the deposited data

Results flagged for a closer look

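The effects of etomoxir and of the MYC inhibitor differed, by a limma test of the difference on values scaled to the median gene, in Keap1 (0.37), Hmox1 (0.62) and Srxn1 (0.56), each higher in etomoxir; on the deposited scale none of these passed. The effect of etomoxir differed from that of low ΔΨm in Srxn1 (0.86 as deposited) and Osgin1 (3.80 as deposited), and the effect of the MYC inhibitor from that of low ΔΨm in Osgin1 (2.81 as deposited), each also past the threshold after scaling. Osgin1 had passed the filter on low values in the inhibitor tables only through the treated group, so that its entry here is no support for a difference. The sorted cells and the inhibitor tables were normalized separately, so that only the difference between fold changes within each table was tested.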

How the results depend on the processing

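Counts of the 10 genes called higher and lower moved with the scale, the filter, single libraries and the replicate block, and beyond these the cause was not tested. Scaled to the median gene, the deposited counts became 1 higher and 6 lower in Low cells, 3 lower in siMat2a, 7 higher and 1 lower in ETO, 5 higher and 0 lower in MYCi cells, and 3 higher for etomoxir against the MYC inhibitor. Signs turned with this scale for Hmox1 (0.27) and Gclc (0.0059) in siMat2a, for Nfe2l2 (0.21), Keap1 (0.35), Hmox1 (0.69), Gclc (0.57), Gclm (0.49) and Txnrd1 (0.019) in ETO, for Nfe2l2 (0.052), Hmox1 (0.076), Gclc (0.62) and Gclm (0.33) in MYCi, for Nfe2l2 (-0.069) in EedKO cells and for Txnrd1 (0.023) between the inhibitors. On the spike-in scale, possible only for the sorted cells and not run elsewhere, Nfe2l2 (0.0074) and Hmox1 (0.031) turned in sign. With no filter 0 genes were lower in Low and siMat2a cells, 1 lower in ETO, and 1 higher and 2 lower in EedKO cells. With at least 1 FPKM in 2 libraries 0 were lower in Low cells, 1 higher in MYCi and 1 higher in EedKO cells, as Osgin1 was then not tested. With a pseudocount of 1, 1 was higher between the inhibitors.

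No source says that replicate numbers mark shared cultures, and 2 pairs a table are too few to show it, so the samples were taken to share only a number. Deviations of same-numbered libraries correlated at -0.0067, -0.035, -0.090, 0.015, 0.065 and 0.24 in the sorted, Mat2a, etomoxir, MYC inhibitor, Eed and SAM tables. With the replicate block, 0 genes were higher in Low cells on the scaled values, 3 lower in siMat2a, 0 lower in ETO (as deposited, scaled and on both scales), 3 lower in MYCi and 9 lower at 50 µM SAM as deposited, the table with the highest correlation, where 0 were lower without the block and 0 with it after scaling.

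Leaving out 1 library gave these ranges. In Low cells, 0 to 1 higher and 2 to 6 lower when scaled, 0 to 1 lower as deposited and 0 to 1 on both scales, with Nfe2l2 at -0.13 to 0.048 and Hmox1 at -0.11 to 0.081. In siMat2a, 0 to 1 higher and 2 to 6 lower when scaled, 0 to 9 lower as deposited and 0 to 6 on both scales, with scaled Gclc at -0.063 to 0.15 and Txnrd1 at -0.11 to 0.16. In ETO, 1 to 3 higher as deposited and on both scales, 0 to 7 lower as deposited, 0 to 1 scaled and 0 to 1 on both scales, with Nqo1 at -0.032 to 0.48, Hmox1 at -0.34 to 0.14 and scaled Txnrd1 at -0.072 to 0.096. In MYCi, 1 to 2 higher as deposited and on both scales and 1 to 6 lower as deposited, with scaled Keap1 at -0.050 to 0.065, Txnrd1 at -0.050 to 0.041 and Gsr at -0.080 to 0.073. In EedKO cells, 1 to 2 higher scaled, 0 to 2 as deposited and on both scales, and 3 to 5 lower scaled, 1 to 4 as deposited and on both scales, with scaled Nfe2l2 at -0.15 to 0.11. In the SAM table scaled Gclc lay at -0.047 to 0.037 and Gclm at -0.19 to 0.0027. Between the inhibitors, Nfe2l2 lay at -0.13 to 0.40, Nqo1 at -0.20 to 0.32 (scaled -0.032 to 0.21), Gclc at -0.29 to 0.14, Gclm at -0.088 to 0.36 and Txnrd1 at -0.23 to 0.23 (scaled -0.067 to 0.10). Where an arm keeps 1 library, it is assumed to vary like the other group.

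With 2 libraries a group, a gene that was not called is not shown to be unchanged, and Osgin1 rests on few fragments in the control groups.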
